A study of Mus musculus with 51 samples.

Results

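This report compares 12 of the 51 arrays of a spike-in experiment: the 6 arrays on which each spiked gene was added at 0.1 pmol, and the 6 arrays with 0 pmol added. The arrays were chosen by the amount and replicate number in the sample titles, and no measured value entered that choice. All arrays were hybridised with total RNA of CRL1606, a mouse hybridoma line made by fusing BALB/c spleen cells to the myeloma P3-X63-Ag8. The line grows in suspension in serum-free medium and secretes an antibody against human fibronectin. On the 0.1 pmol arrays both channels held this RNA, with 100 genes spiked into channel 1 and a different 100 into channel 2. On the 0 pmol arrays both channels held the hybridoma RNA alone. The labels do not tell whether replicate arrays stem from separate cultures. The p-values therefore cover only variation among arrays, which may be technical. In the limma tests that spread was pooled over all 51 arrays, so it need not match the SDs printed for 6 arrays.

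A self-hybridised 2-colour array compares an RNA with itself, so a gene present equally in both channels gives a log2 ratio near the centre of the array. A transcript added to one channel moves its own probe away from that centre, in a direction set by the channel that received it. Which channel is the numerator of the deposited values is not given in the sources used, and ratios are therefore called positive or negative only. A ratio of this kind is not an expression level, so the labelled cell type could not be checked against its markers.

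Each of the 7920 features tested is the mean of a pair of spots, on log2 ratios centred on the array's median. Differences are 0.1 pmol minus 0 pmol, from a limma fit, and a feature is called where its Benjamini-Hochberg adjusted p over all features is under 0.05. Both the missing spots and the spread differed between arrays. Missing spots made up 0.331 to 9.22% of each 0.1 pmol array, with replicate 4 the highest, against 0.888 to 5.36% of each 0 pmol array.

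The 0.1 pmol group was not uniform. In replicates 4-6 the paired spots correlated at 0.402 to 0.520 across features, and in replicates 1-3 at 0.938 to 0.955. Arrays at 0 pmol lay between these, at 0.617 to 0.805. Those features include any spiked genes, so the spike signal itself enters this correlation. Across features that were not spike candidates (defined below), a replicate from 4-6 and one from 1-3 correlated at -0.067 to 0.200, while the 3 arrays of replicates 1-3 correlated with each other at 0.500 to 0.792. A clustering of all 51 arrays on those features, into 6 sets, put replicates 4-6 in the set that held all 6 arrays at 0 pmol and replicates 1-3 in another. Results are therefore given for both parts of the 0.1 pmol group where they differ. The 0 pmol group was not uniform either. On the same features its replicates 4-6 correlated with each other at 0.721 to 0.753. Its replicates 1-3 correlated with each other at 0.304 to 0.443, and with its replicates 4-6 at 0.18 to 0.312. Spots at the upper limit of the deposited values numbered 138 to 151 in 0 pmol replicates 4-6 and 2 to 7 in 0 pmol replicates 1-3.

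The largest differences at 0.1 pmol exceeded the spread between arrays several times over. The most positive difference of all features was a probe for Galnt13, which adds the first sugar in mucin-type O-glycosylation, and the most negative a probe for Fem1c, a substrate receptor of cullin-RING ubiquitin ligases. The 4 genes that led an earlier pass over these data were Galnt13, Tlr1, Fem1c and Nagk. They are described here as leading genes, not as markers of a cell type.

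Galnt13 (spot 7846) had log2 ratios of 7.74, 8.91 and 8.08 in 0.1 pmol replicates 1-3 and 7.20, 7.17 and 6.88 in replicates 4-6. On the 5 arrays at 0 pmol that measured it, the log2 ratio ran from -1.21 to -0.11. The groups did not overlap, and the lowest 0.1 pmol array was one of replicates 4-6. The mean was 7.66 ± 0.75 at 0.1 pmol (SD, n = 6) and -0.62 ± 0.53 at 0 pmol (SD, n = 5), and these differ by 8.29 (standard error 0.54, adjusted p = 3.01e-15).

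Tlr1 (spot 9330), a receptor that senses bacterial lipopeptides, had log2 ratios of 5.09, 6.41 and 3.81 in 0.1 pmol replicates 1-3 and 6.45, 6.36 and 6.34 in replicates 4-6. At 0 pmol it ran from -1.77 to -0.32 on 5 arrays. Unlike most leading genes, its lowest values at 0.1 pmol lay in replicates 1 and 3. The difference was 6.60 with a standard error of 0.66 (adjusted p = 8.61e-10).

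Fem1c was printed as 2 probes, and both were strongly negative. The probe at spot 15721 gave -6.56, -6.99 and -7.14 in 0.1 pmol replicates 1-3 and -5.68, -4.43 and -5.12 in replicates 4-6, against -0.61 to -0.01 at 0 pmol. The probe at spot 2642 gave -5.83 to -4.42 over the 6 arrays at 0.1 pmol, against -0.43 to 0.25 at 0 pmol. The 2 groups were far apart at both probes, with differences of -5.74 (adjusted p = 2.32e-09) and -5.20 (adjusted p = 4.09e-06).

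Nagk (spot 9833), the kinase that phosphorylates N-acetylglucosamine, gave -6.50, -6.17 and -6.19 in 0.1 pmol replicates 1-3 and -4.48, -4.89 and -4.91 in replicates 4-6. Its values at 0 pmol ran from -0.42 to 0.45. Every array of replicates 4-6 was nearer 0 than every array of replicates 1-3, yet all 6 were far below 0 pmol. The difference was -5.55 with a standard error of 0.53 (adjusted p = 2.52e-10).

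**Figure D1:**
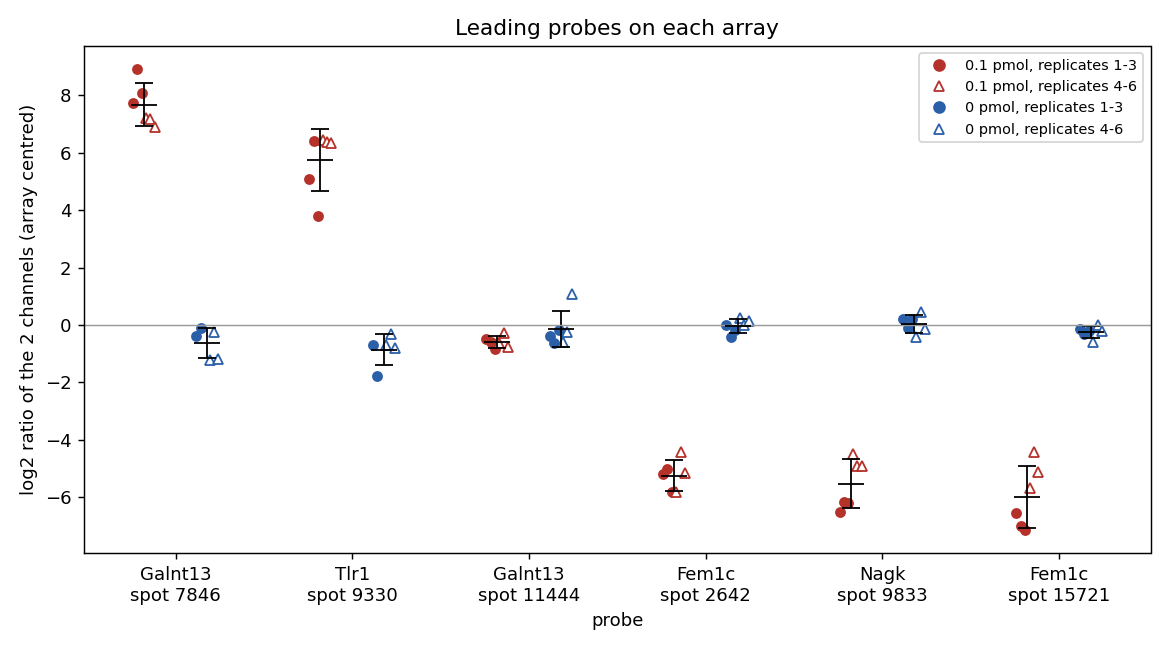
The plot shows the array-centred log2 ratio (vertical axis) of each probe of the 4 leading genes on every array, with 0.1 pmol in red left of 0 pmol in blue, filled circles for replicates 1-3, open triangles for replicates 4-6, and black bars for mean ± SD. Galnt13 spot 7846, Tlr1, both Fem1c probes and Nagk sit far from 0 at 0.1 pmol, while Galnt13 spot 11444 stays between -0.84 and -0.28 there.

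The leading features named here are the 12 highest and 12 lowest called differences with 1 sign on every 0.1 pmol array and at least 5 of 6 arrays measured in each group. A feature without a symbol at spot 8362 (6.50) was left out because only 4 arrays at 0 pmol measured it. Zfp292, a zinc finger protein, gave 7.20, 8.32 and 7.87 in 0.1 pmol replicates 1-3 but only 3.89, 3.40 and 3.73 in replicates 4-6, against a mean of -0.54 ± 0.35 at 0 pmol (SD, n = 6; difference 6.28, adjusted p = 3.44e-08). Cald1, the actin-binding protein caldesmon, had a difference of 5.89, and its 0.1 pmol arrays ran from 3.89 to 5.52. E2f4, a transcription factor of the cell cycle, had 5.42, 5.05 and 5.58 in replicates 1-3 and 6.39, 6.25 and 6.26 in replicates 4-6, against 0.53 to 0.83 at 0 pmol. With Tlr1 and the feature at spot 3580, it was one of 3 among these 12 highest features that lay farther from 0 in replicates 4-6. The remaining leading positive features were Sspn of the dystrophin complex (4.99), the clathrin light chain Cltb (4.97), the fructose transporter Slc2a5 (4.88), Mreg, known from pigment granule transport (4.53), the cell surface glycoprotein Tpbg (4.41), and 2 features without a gene symbol at spots 2748 (4.85) and 3580 (4.58).

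Among the leading negative probes, those of Tec and Cd22 belong to genes of lymphocyte signalling. Tec, a tyrosine kinase of antigen receptor signalling, averaged -6.15 ± 0.74 at 0.1 pmol and -0.99 ± 0.89 at 0 pmol (SD, n = 6 each), a difference of -5.16 (adjusted p = 2.17e-08). Cd22, an inhibitory co-receptor of B cells, ran from -5.14 to -3.46 at 0.1 pmol, against -0.22 to 0.54 at 0 pmol (difference -4.43, adjusted p = 4.02e-06). The others were the zinc finger protein Zfp330 (-5.31), the membrane protein Ms4a4b (-5.06), Prkaca, a catalytic subunit of protein kinase A (-5.03), the mitochondrial carrier Slc25a44 (-4.82), the nucleotide kinase Cmpk1 (-4.81), the scaffold Iqgap2 (-4.37) and the transcription factor Sox11 (-4.33). Sox11 was not uniform at 0 pmol, where replicates 1-3 gave 0.35, 0.17 and 0.55 and replicates 4-6 gave -1.38, -1.60 and -1.97. Its 0.1 pmol arrays, at -5.37 to -4.13, lay below all of these.

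The 12 highest and 12 lowest features named so far were chosen by their difference, so their tests describe them and add no independent support. All kept their call and direction in every alternative setting that gave a value. Zfp292 moved most among them: its difference was 3.91 with replicates 4-6 of both groups and 8.64 with replicates 1-3.

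Over all features, 496 of 7920 were called, which is 6.26%. Of these, 324 were positive (4.09% of features) and 172 negative (2.17%), and 1510 features had an unadjusted p under 0.05. The groups did not overlap for 409 features (5.16%), with 0.1 pmol higher for 190 (2.40%) and lower for 219 (2.77%). Without centring, 211 features were called, and with limma's array quality weights 1620. Without 0.1 pmol replicate 2, 321 were called.

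The labels do not name the spiked genes, so candidates for them were taken from the other spiked amounts. For each feature the means of the 9 other spiked amounts were averaged over 39 arrays, and the 100 highest and 100 lowest were kept. Neither the 0.1 pmol nor the 0 pmol arrays entered this choice. The least extreme positive candidate averaged 2.447 on those arrays and the first feature outside the set 2.444, and on the negative side the values were -1.770 and -1.747. There is no gap at either edge, so the sets may hold unspiked features and miss spiked ones. Another 505 features could not be scored: 504 had no value at 1 pmol, 1 of the amounts averaged, and 1 was measured on fewer than 30 of the 39 arrays.

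Of the 200 candidates, 168 (84.0%) were called with their own sign at 0.1 pmol, against 6.26% of all features. No candidate was called against its sign. The 86 called positive candidates compare with 4.09% of all features called positive, and the 82 called negative candidates with 2.17%. Median differences were 2.62 for positive candidates (range 0.24 to 8.29) and -2.57 for negative candidates (range -5.74 to -0.24), beside a median of -0.06 over all features. The log2 ratio had the candidate's sign on every measured 0.1 pmol array for 94 positive and 92 negative candidates. The groups did not overlap for 85 and 82 of them, against 2.40% and 2.77% of all features.

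Candidates and other called features differed in which group left the centre. Candidates were chosen for means far from 0 at the other spiked amounts, so part of this contrast may follow from the choice. Of the 168 called candidates, 163 had a mean away from 0 at 0.1 pmol alone, and 0 at 0 pmol alone, each by the same limma fit against a log2 ratio of 0. Of the 328 called features that were not candidates, 250 (76.2%) were away from 0 at 0 pmol alone and 63 at 0.1 pmol alone. Their differences were smaller, with a median size of 1.11 and only 9 of at least 2 in size. In that test 720 of all features (9.09%) had a mean away from 0 at 0.1 pmol, 273 positive (3.45%) and 447 negative (5.64%), against 1993 (25.2%) at 0 pmol, 792 positive (10.0%) and 1201 negative (15.2%). The count at 0 pmol was 1271 without 0 pmol replicate 5 and 1303 without replicate 6.

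**Figure D2:**
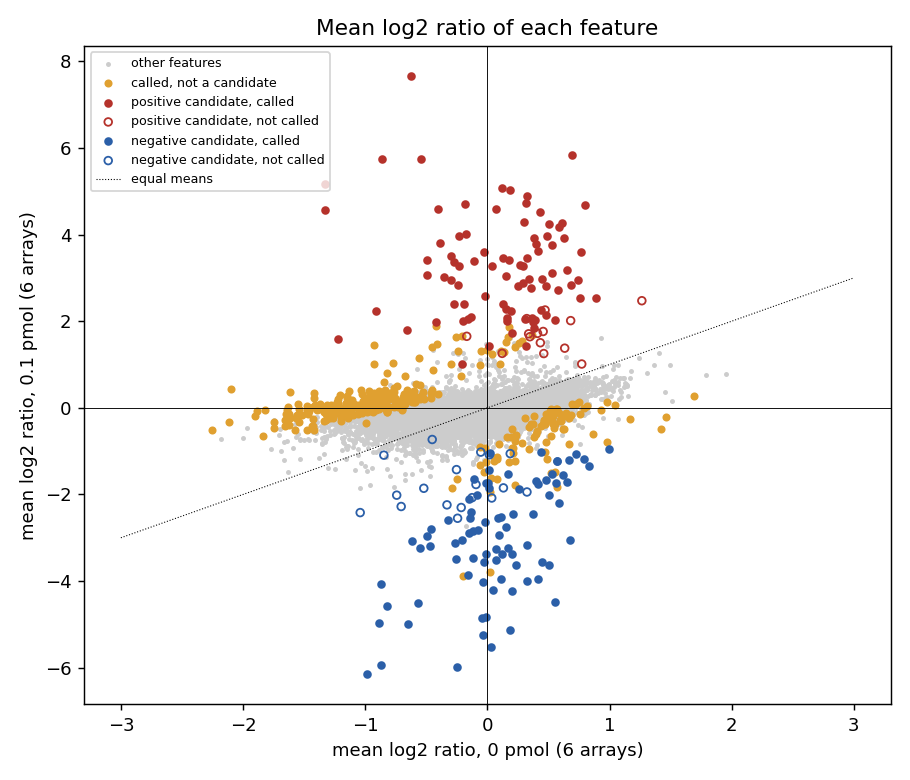
Each point is a feature, with its mean array-centred log2 ratio over the 6 arrays at 0.1 pmol on the vertical axis and over the 6 arrays at 0 pmol on the horizontal axis. Positive candidates in red and negative candidates in blue spread vertically near 0 on the horizontal axis, while most called features that are not candidates, in yellow, spread horizontally near 0 on the vertical axis.

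Cd3e was a called feature of this second kind, and the unspiked arrays held others that were not called. Cd3e, a chain of the T-cell receptor complex, averaged -0.25 ± 0.47 at 0.1 pmol (SD, n = 6) and -1.63 ± 0.65 at 0 pmol (SD, n = 5), a difference of 1.38 (adjusted p = 0.000826). Nipa2, a magnesium transporter, was the most positive named feature of the unspiked arrays, averaging 0.75 ± 0.28 at 0.1 pmol and 1.79 ± 0.63 at 0 pmol (SD, n = 6 each). Its difference of -1.03 did not pass the threshold (adjusted p = 0.124). Palld, an actin-associated protein, averaged -0.71 ± 0.85 at 0.1 pmol (SD, n = 5) and -2.18 ± 1.05 at 0 pmol (SD, n = 6), and its difference of 1.46 did not pass either (adjusted p = 0.0757).

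Some called features outside the candidates had large log2 ratios at 0.1 pmol. Nostrin, an adaptor that binds endothelial nitric oxide synthase, gave -5.27, -4.38 and -5.48 in 0.1 pmol replicates 1-3 and -3.11, -2.28 and -2.83 in replicates 4-6, against -0.93 to 0.37 at 0 pmol. Its difference was -3.69 (adjusted p = 0.000263), and it was not scored as a candidate because it had no value at 1 pmol, although 36 of the 39 other arrays measured it. Galnt1, of the same enzyme family as Galnt13, gave 3.23, 4.45 and 3.21 in 0.1 pmol replicates 1-3 but 0.25, 0.04 and 0.17 in replicates 4-6, against -1.24 to 0.10 at 0 pmol. Its called difference of 2.31 (adjusted p = 0.0263) rested on replicates 1-3. Ect2, a regulator of cytokinesis, had the same pattern on the negative side, with -3.17, -2.22 and -2.80 in replicates 1-3 and 0.27, -0.69 and -0.30 in replicates 4-6, against 0.01 to 1.46 at 0 pmol.

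The 32 candidates that were not called had differences with the candidate’s sign, as did all 200. Las1l, a factor of ribosome biogenesis, averaged 1.01 ± 0.55 at 0.1 pmol and 0.77 ± 0.04 at 0 pmol (SD, n = 6 each), the smallest difference of a positive candidate at 0.24 (adjusted p = 0.847). Cisd2, an iron-sulfur protein, was already positive without spike, averaging 2.47 ± 0.51 at 0.1 pmol and 1.26 ± 0.19 at 0 pmol (SD, n = 6 each; adjusted p = 0.0892). Plpbp, a pyridoxal phosphate binding protein, gave -4.19, -3.85 and -3.76 in 0.1 pmol replicates 1-3 and -1.15, -0.06 and -0.80 in replicates 4-6, against -0.62 to 0.08 at 0 pmol (adjusted p = 0.0757).

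Replicates 4-6 at 0.1 pmol carried a smaller signal than replicates 1-3. The candidate separation of an array is the average of the median log2 ratio of its positive candidates and that of its negative candidates with the sign turned. It was 2.01, 1.71 and 1.95 in 0.1 pmol replicates 4-6 and 3.58, 3.49 and 3.65 in replicates 1-3, against 0.07 to 0.14 at 0 pmol. Relative to the spread of the other features on the same array (the median absolute deviation), it averaged 3.17 in replicates 4-6 and 9.28 in replicates 1-3. Within one sign, an array of replicates 4-6 and one of replicates 1-3 correlated at 0.480 to 0.631 across the 100 positive candidates and at 0.536 to 0.676 across the 100 negative candidates. These points share their arrays, so the correlations are a description.

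**Figure D3:**
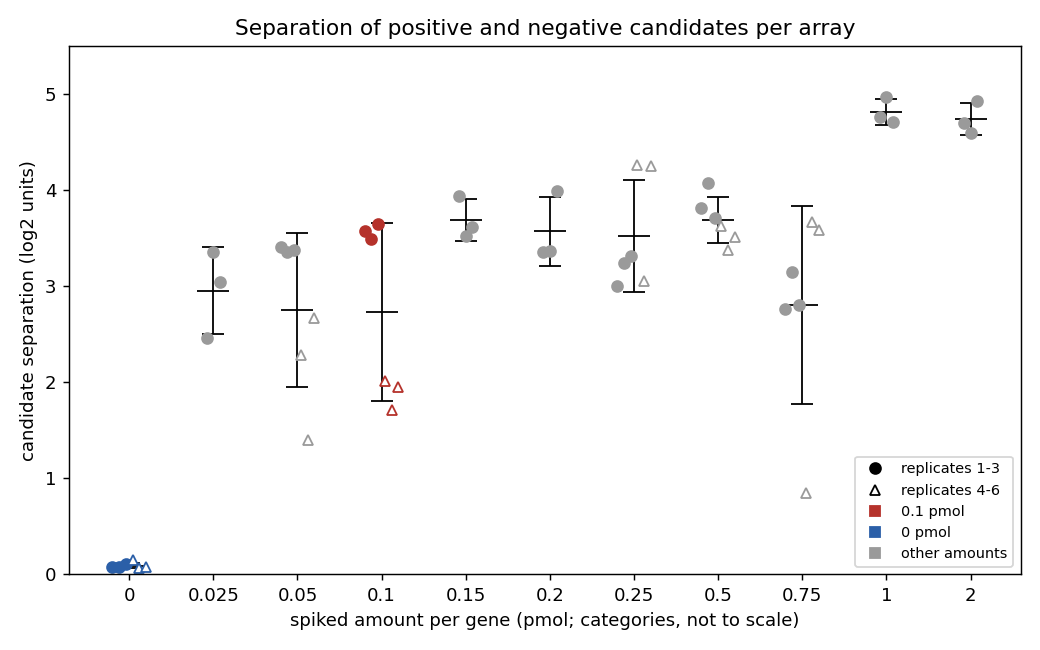
The candidate separation of each array in log2 units (vertical axis) is plotted by spiked amount from low to high (horizontal axis, categories not to scale), with filled circles for replicates 1-3, open triangles for replicates 4-6, and bars for mean ± SD. The 0 pmol arrays in blue lie at 0.07 to 0.14, and the 0.1 pmol arrays in red fall into 3 at 1.71 to 2.01 and 3 at 3.49 to 3.65.

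In a direct comparison of replicates 4-6 with replicates 1-3 at 0.1 pmol, 391 of 7912 features were called (4.94%), 115 positive (1.45%) and 276 negative (3.49%). Among the candidates 55 were called (27.5%), 54 of them nearer 0 in replicates 4-6. Over all candidates, called or not, 87 positive and 86 negative ones lay nearer 0 in replicates 4-6. Zfp292 (-4.12, adjusted p = 0.00354), Mreg (-2.65, adjusted p = 0.0286) and Slc2a5 (-2.37, adjusted p = 0.0379) were the called ones among the leading genes. The lower correlation of paired spots moved with the same split. That correlation includes the candidates, so it is not a measure separate from their log2 ratios. The median absolute deviation of other features was larger on average in replicates 4-6 (0.603, against 0.405 in replicates 1-3). It did not separate every array, with 0.507 on replicate 2 and 0.506 on replicate 5. What paired spots and spread contributed to the result was not tested.

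Some probes changed sign within the 0.1 pmol group. Large2, a glycosyltransferase that acts on dystroglycan, was a negative candidate and gave log2 ratios of -3.53, -2.71 and -3.83 in replicates 4-6 but 1.96 and 3.01 in replicates 1 and 3 (difference -5.84). Its values at 0 pmol ran from -0.28 to 0.40. Tmem179, a membrane protein, gave 3.54, 0.66 and 1.54 in 0.1 pmol replicates 4-6 and -3.25, -2.35 and -3.02 in replicates 1-3 (difference 4.79), against -0.78 to 0.49 at 0 pmol. Neither was called in the comparison of all 6 arrays at 0.1 pmol with 0 pmol (adjusted p = 0.639 and 0.861). Nkain2, which interacts with a sodium pump subunit, kept its sign but gave 1.92, 1.82 and 1.17 in replicates 4-6 and 5.71, 6.09 and 6.18 in replicates 1-3 (difference -4.36), against -1.25 to 0.25 at 0 pmol.

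**Figure D4:**
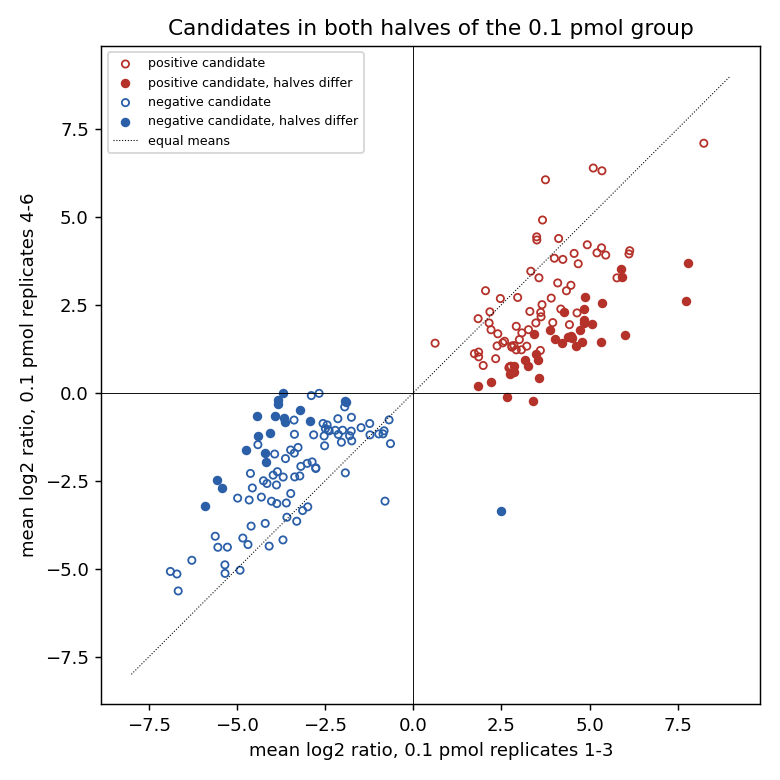
Each point is a candidate, with its mean log2 ratio in 0.1 pmol replicates 4-6 on the vertical axis and in replicates 1-3 on the horizontal axis, and filled points differ between the 2 parts at an adjusted p under 0.05. Most points lie nearer 0 on the vertical than on the horizontal axis, and the filled blue point at lower right is Large2.

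Set against all 6 arrays at 0 pmol, 0.1 pmol replicates 4-6 alone gave 263 called features with 90 candidates, and replicates 1-3 alone gave 812 with 186 candidates. The 4 leading genes passed in both, but they were picked on these same arrays, so this adds no independent support. The Galnt13 difference was 7.71 with replicates 4-6 and 8.87 with replicates 1-3. That of Tlr1 was 7.24 with replicates 4-6 and 5.96 with replicates 1-3. That of Fem1c (spot 15721) was -4.83 with replicates 4-6 and -6.65 with replicates 1-3, and that of Nagk -4.79 with replicates 4-6 and -6.32 with replicates 1-3. Calls of replicates 4-6 split as 86 positive and 177 negative, whereas those of replicates 1-3 split as 527 and 285.

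Most genes that had a candidate probe and further probes had a single candidate among their probes. Of 40 genes with a candidate probe and at least 1 further probe, 37 had a single candidate probe. Their candidate probes were called in 30 of 37 cases, with a median size of the difference of 2.63. Their 53 other probes had a median size of 0.26, and 3 of them were called (5.66%, beside 6.26% of all features). For 34 of the 37 genes all probes are annotated to the same transcript accession. Galnt13 had a second probe (spot 11444) under the same accession that averaged -0.59 ± 0.20 at 0.1 pmol and -0.15 ± 0.62 at 0 pmol (SD, n = 6 each), a difference of -0.44 (adjusted p = 0.598). That value turned to 0.19 without centring. Papola, the poly(A) polymerase, had a difference of -4.15 at one probe (adjusted p = 5.71e-08) and -0.13 at the other (adjusted p = 0.796). The probe sequences are not used here, so which stretch of each transcript a probe covers is not described.

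**Figure D5:**
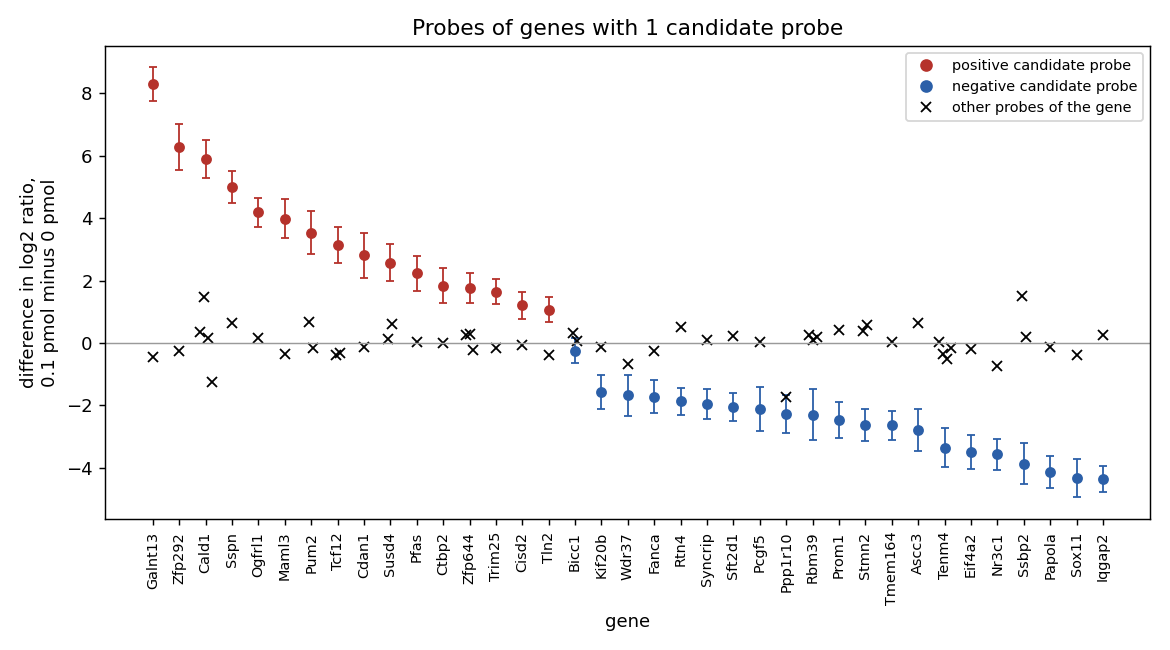
For each of the 37 genes with a single candidate probe and at least 1 further probe (horizontal axis), the difference in log2 ratio, 0.1 pmol minus 0 pmol, is plotted for the candidate probe as a red or blue circle ± standard error and for the other probes as black crosses. The crosses lie between -1.72 and 1.50, while the circles reach 8.29 and -4.37.

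Only 3 genes had more than 1 candidate probe. Fem1c and Smpd4, a sphingomyelinase, had a pair of negative probes each, and those of Smpd4 differed from 0 pmol by -2.90 (adjusted p = 0.00300) and -1.80 (adjusted p = 0.00140). Hk2, the hexokinase of the first step of glycolysis, had one probe of each sign. Its probe at spot 9437 gave 3.83 to 4.80 at 0.1 pmol, against 0.40 to 0.93 at 0 pmol (difference 3.65, adjusted p = 3.72e-08). Its probe at spot 15849 gave -2.29, -2.06 and -2.07 in 0.1 pmol replicates 1-3 and -0.76, -0.68 and -0.78 in replicates 4-6, against -0.33 to 0.37 at 0 pmol (difference -1.46, adjusted p = 0.0163). Both probes carry the same accession.

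On the array the candidates were not spread evenly. They lay in 44 of the 48 print blocks, but 33, 30 and 25 of the 200 stood in columns 20, 21 and 8 of the 22 columns of a block. Beside another candidate stood 52 of them. Features that were not candidates were called in 5.49% of 637 positions beside a candidate and in 4.14% of 7083 other positions.

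Pathway lists, chosen with earlier results of these data known, held 34 called probes in all, 22 without 0.1 pmol replicate 2 and 20 without centring. All values that follow are differences in log2 ratio, and each count stands beside 6.26% of all features called. In the glycolysis and sugar kinase list 4 of 14 probes were called, all candidates: Nagk, Slc2a5 and both Hk2 probes, and the list's median was -0.16. In mucin-type O-glycosylation 2 of 13 were called, Galnt13 and Galnt1 (median -0.02). In the Toll-like receptor list Tlr1 was the single call among 7 probes (lowest -0.30, median -0.12). In cullin-RING ubiquitin ligases 5 of 16 were called (median 0.20), with Fem1c at both probes, the scaffold Cul1 at 1.31 and the F-box protein Btrc at 0.96 among them. Cul1 averaged -0.15 ± 0.71 at 0.1 pmol and -1.46 ± 1.37 at 0 pmol (SD, n = 6 each), so it was the 0 pmol mean that lay farther from 0. By the test against a log2 ratio of 0, Cul1 and Btrc were away from 0 at 0 pmol alone.

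In messenger RNA 3′-end processing 3 of 8 probes were called (median -0.12), and these went both ways: Papola at -4.15, the cleavage factor subunit Cpsf6 at 4.09 and Fip1l1 at 0.86. In T-cell receptor and costimulation 4 of 10 were called (median 0.01), namely Tec, Cd3e, the adaptor Fyb at 1.29 (adjusted p = 0.0174) and the surface receptor Cd6 at -0.58 (adjusted p = 0.0390). Of these only Tec was a candidate. By the test against a log2 ratio of 0, Cd3e, Fyb, Cd6 and Fip1l1 were away from 0 at 0 pmol alone. In the B cell and plasma cell list Cd22 was the single call among 6 probes (median -0.01).

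In the actin and dystrophin list 5 of 30 probes were called (median 0.06), with Cald1, Sspn and Iqgap2 as candidates and a second Cald1 probe at -1.26 (adjusted p = 0.00636) against the first. In the cell cycle list 3 of 16 were called (median -0.15): E2f4, the kinase Cdk6 at 1.39 and the replication helicase subunit Mcm7 at -0.71. Cdk6 averaged -0.27 at 0.1 pmol and -1.66 at 0 pmol, and Mcm7 -0.12 at 0.1 pmol and 0.59 at 0 pmol. In DNA repair 3 of 24 were called (median 0.08), the checkpoint protein Topbp1 at -4.25, Fanca of the Fanconi anaemia pathway at -1.73 and the excision repair protein Xpa at 0.87. By the test against a log2 ratio of 0, Cdk6, Mcm7 and Xpa were away from 0 at 0 pmol alone. In oxidative phosphorylation the complex I subunit Ndufa2 was called at -4.00 (adjusted p = 1.39e-06), alone among 5 probes (median -0.38). In ER folding and secretion 0 of 12 probes were called by limma (and 0 at an unadjusted p under 0.05). Differences in that list ran from -0.92 to 0.41 (median -0.23). With 6.26% of all features called, a list this short can hold 0 calls. Of the markers of other cell types, Cd3e was the 1 of 5 T, NK and myeloid probes called (median 0.21), and the epithelial keratin Krt18 at 3.24, a candidate, and the collagen Col1a2 at 1.13 were the 2 of 10 liver, muscle, nerve, epithelium and stroma probes called (median 0.18). The called Col1a2 probe was likewise away from 0 at 0 pmol alone.

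No control position printed in every block passed the test between the groups. Gapdh averaged -0.08 ± 0.18 at 0.1 pmol and -0.25 ± 1.02 at 0 pmol, and Pdia3, a disulfide isomerase, 0.25 ± 0.25 at 0.1 pmol and 0.16 ± 0.52 at 0 pmol (SD, n = 6 each). The lowest two-sided exact permutation p among 11 control positions was 0.0303 (Benjamini-Hochberg adjusted p = 0.202), at an unnamed position that averaged 3.95 ± 0.63 at 0.1 pmol and 5.56 ± 1.26 at 0 pmol (SD, n = 6 each). With 6 against 6 arrays the smallest p such a test can give is 0.00216.

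Few features separated 0.1 pmol from the neighbouring amounts. Against 0.05 pmol 3 features were called (0.0379%), none a candidate, while 942 had an unadjusted p under 0.05. Without 0.1 pmol replicate 2 or 5 the count was 0 (873 and 891 at an unadjusted p under 0.05), and without replicate 6 it was 1. The called ones included the second Sspn probe at 1.53 (adjusted p = 0.0223) and the fucosyltransferase Fut9 at 1.48 (adjusted p = 0.0235). Galnt13 (spot 7846) differed from 0.05 pmol by 0.40 with a 95% interval of -0.64 to 1.43. Nagk differed by -0.73 with an interval of -1.80 to 0.34. With the sign of negative candidates turned, the median candidate difference was -0.04, and the median standard error of a candidate was 0.53, so the comparison does not show that the amounts act alike.

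Against 0.15 pmol 9 features were called (0.114%), 5 of them candidates, and 929 had an unadjusted p under 0.05. The count was 0 without 0.1 pmol replicate 4, 5 or 6 (742, 774 and 802 at an unadjusted p under 0.05), 32 without replicate 2, and 0 without centring (219 at an unadjusted p under 0.05). Las1l was lower at 0.1 pmol by a log2 ratio difference of -2.90, and Tmx3, a disulfide isomerase of the ER, by -3.72 (adjusted p = 0.0364 for both). Against 0.25 pmol 1 feature without a gene symbol was called (0.0126%), and 777 had an unadjusted p under 0.05; the count was 0 without 0.1 pmol replicate 5 (599 at an unadjusted p under 0.05), 2 without replicate 1, and 3 without replicate 2 or 3. The median candidate difference, with the sign of negative candidates turned, was -0.74 against 0.15 pmol and -0.71 against 0.25 pmol. Candidate separation averaged 2.75 ± 0.80 at 0.05 pmol (SD, n = 6), 2.73 ± 0.93 at 0.1 pmol (SD, n = 6), 3.69 ± 0.22 at 0.15 pmol (SD, n = 3) and 3.52 ± 0.58 at 0.25 pmol (SD, n = 6). At the other spiked amounts it averaged 2.95 at 0.025 pmol, 3.57 at 0.2 pmol and 3.69 at 0.5 pmol. It averaged 2.80 at 0.75 pmol, 4.81 at 1 pmol and 4.74 at 2 pmol, so it did not rise steadily with the amount. The candidates were chosen on all of these amounts but 0.1 pmol. Replicates 4-6 at 0.1 pmol averaged 1.89 ± 0.16 and replicates 1-3 averaged 3.57 ± 0.08 (SD, n = 3 each). The group's place among the amounts thus depends on which of its arrays are used. At 0.05 pmol the separation was also lower in replicates 4-6 (2.285, 1.401 and 2.667) than in replicates 1-3 (3.409, 3.351 and 3.38). Paired spots at 0.05 pmol correlated at 0.455 to 0.691 in replicates 4-6 and at 0.9245 to 0.958 in replicates 1-3. At 0.25 pmol replicates 4-6 gave separations of 4.258, 3.05 and 4.248, against 3.002, 3.245 and 3.317 in replicates 1-3.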

How the data were processed

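Each spot of each array has 1 log2 ratio, as deposited by the authors. The background subtraction, normalisation, log base and numerator channel of these deposited log2 values are not given in the sources used here; the base was read from the values, whose upper limit of 16.61 is log2 of a ratio of 100000. Values at that limit were set to missing, each array was centred on its median, and paired spots 22 positions apart were averaged. Gene symbols came from the platform annotation, with symbols updated from RefSeq. All 51 arrays entered 1 limma fit (limma 3.58.1 in R 4.3.3) with a mean per amount, requiring 2 measured arrays in each group; tests are two-sided. The arrays' number limits the precision. Groups and replicate numbers came from the titles.

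The members and lists were chosen with earlier results of these data known. Named genes are the 12 highest and 12 lowest called differences with 1 sign on every 0.1 pmol array and at least 5 measured arrays in each group, all probes of Galnt13, Tlr1, Fem1c and Nagk, up to 4 called members of each list, 4 uncalled candidates and 4 called features that are not candidates each way, and 2 features each way in each other comparison. Smpd4 and the second Papola probe fall outside this rule and were picked after their values were seen. Alternatives covered centring, scaling, paired spots, missing values, arrays left out, covariates and the choice of candidates.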

Additional observations from a re-analysis of the deposited data

Results flagged for a closer look

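Among 60 groups of values examined for a sample far from the others, 4 stood out, and chance alone marks about 1 group in 20. At 0.1 pmol, Zfp330 was nearer 0 on replicate 5 (log2 ratio -4.17) than on the other 5 arrays. Sox11 was nearer 0 on 0.1 pmol replicate 2 (-4.13) than on the others. The second Galnt13 probe, at spot 11444, was highest on 0 pmol replicate 6 (1.06), while the other 0 pmol arrays were below 0. Replicate 4 at 0.1 pmol had 9.22% of its spots missing, against at most 1.93% on the other 5 arrays at 0.1 pmol.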

How the results depend on the processing

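The 12 highest and 12 lowest named differences kept their call and direction under every alternative that gave a value for them. The second Galnt13 probe reversed to 0.19 without centring (adjusted p = 0.837). The 496 calls became 211 without centring (162 positive, 76.8%, against 65.3% in the fit reported, with the median of all features at 0.58 in place of -0.06), 770 within replicates 1-3 of both groups (49.1% positive), 360 within replicates 4-6 (53.1% positive), 1620 with array weights (866 positive), and 763 with 8 array sets as a covariate (355 positive; 514, 272 positive, with 6 sets). As alternatives chosen after seeing the data, 0.1 pmol replicates 4-6 against all 0 pmol arrays gave 263 (32.7% positive), with 90 candidates in place of 168, and replicates 1-3 gave 812. Candidates called numbered 98 when only 50 each way were taken, with a separation of 3.68.

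Without centring, calls fell to 39 between the parts of the 0.1 pmol group (715 with arrays scaled) and 20 in the gene lists (34 in the fit reported), while 7600 and 7900 group means differed from 0 at 0.1 and 0 pmol, since the arrays' own medians are then left in. Against 0.05, 0.15 and 0.25 pmol it gave 0 limma calls each (127, 219 and 74 at an unadjusted p under 0.05). Against 0.05 pmol the count was 0 with arrays scaled (668 unadjusted), 0 with the first spot alone (957 unadjusted) and 6 with the upper limit kept. Against 0.15 pmol it was 4 with the first spot, and against 0.25 pmol it was 0 with arrays scaled (839 unadjusted), 2 with the first spot and 4 with the second. Except where stated, the cause was not tested.

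Leaving out 1 array gave 321 (without 0.1 pmol replicate 2) to 582 calls, 153 to 176 candidates, 22 (without 0.1 pmol replicate 2) to 37 list probes, a separation of 2.55 to 2.93, 505 to 779 means off 0 at 0.1 pmol, and 1271 (without 0 pmol replicate 5; 1303 without replicate 6) to 2043 at 0 pmol. Against 0.05, 0.15 and 0.25 pmol it gave 0 to 4, 0 to 32 and 0 to 3 calls.

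Same-numbered arrays of the 2 groups correlated at 0.0435 to 0.226 in their deviations, so the numbers were not taken to pair the arrays. Arrays from the same part of the 2 groups (the first 3 or the last 3 replicates) correlated at -0.00734 to 0.226. Arrays from different parts correlated at -0.209 to 0.011. The deviations thus followed the same split weakly in both groups, and the fit reported has no term for it. The log2 ratios of features that were not candidates showed it less clearly. There, 0 pmol replicates 1-3 correlated at a median of 0.165 with 0.1 pmol replicates 1-3 and 0.172 with replicates 4-6. For 0 pmol replicates 4-6 these medians were 0.189 and 0.322. With the part as a covariate, the leading named differences kept their direction. With the replicate number as a block, 369 features were called, with 168 candidates.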
